A study of Mus musculus with 4 samples.

Results

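Gene expression in myeloid progenitors (MP) was compared between 1 Smo-deficient and 1 control pool of mice, on 2 of the 4 arrays of the study. The members of the comparison are the arrays that the labels name WT MP and Smo-deficient MP, and each value below is the log2 intensity of a gene on those arrays, or the Smo-deficient value minus the WT value, called the MP difference. MP cells are bone marrow cells that lack mature lineage markers, carry c-Kit and lack Sca-1. The other 2 arrays hold LSK cells, which carry both c-Kit and Sca-1 and include the stem cells, from the same pools of mice, and serve here only as context. Mice of both groups were Smo flox/flox. WT mice were Mx1Cre- and Smo-deficient mice were Mx1Cre+, so the control cells still carried the floxed allele. The Mx1 promoter that drives the Cre answers to interferon and is not restricted to blood cells. All mice, controls included, had 3 intraperitoneal injections of polyI:C (20 ug per g), which induces interferon, 6 weeks before their marrow was taken. The marrow of 4 mice of each genotype, of both sexes, was combined and then sorted, and 20 ng of RNA was amplified in 2 cycles. Ages were not stated. The strain label gives a mixed C57BL/6 background whose second part is numbered differently on each array. There is thus 1 array a group, no test, no error and no p-value for any difference, and precision is limited by this number.

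Smoothened, the product of Smo, is the membrane protein through which cells read hedgehog signals. When a hedgehog ligand binds Patched, Smoothened is released and the Gli transcription factors turn on targets that include Gli1 and Ptch1. Myeloid progenitors are a mixture of cells that form granulocytes and monocytes and cells that form red cells and platelets. Gata1 and its partners drive the erythroid and megakaryocyte programmes, and Spi1 (PU.1), Cebpa, Irf8 and Gfi1 drive the granulocyte and monocyte programmes. In a bulk sample of such a mixture, fewer cells of a type and less RNA per cell cannot be told apart.

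The median intensity was 149.6 in WT and 150.3 in Smo-deficient MP, and the upper quartiles were 563.9 and 543.1. Across probe sets, the log2 values of both arrays had a Pearson correlation of 0.994. The 9 hybridisation spikes, control transcripts added to the hybridisation mix, were lower on the Smo-deficient MP array by a mean of -0.33 ± 0.12 (SD over the spikes) on the log2 scale, and the 12 poly-A spikes by -0.30 ± 0.14. How far this offset enters the gene values was not tested, and counts centred on the spikes are given beside the main counts. Actb control probe sets for the 3' end exceeded those for the 5' end by 1.34 in WT and 1.31 in Smo-deficient MP. As a check of the sort, the stem cell genes Mecom and Procr were lower in MP than in LSK. Mecom was at 7.58 in WT MP and 10.84 in WT LSK, and Procr at 6.76 and 10.32. On the Smo-deficient arrays, Mecom was at 7.04 in MP and 10.92 in LSK, and Procr at 7.44 and 11.4. Not all stem cell genes followed, as Mllt3 was at 9.68 in WT MP and 9.52 in WT LSK. Kit, which defines both gates, was at 12.31 in WT and 12.40 in Smo-deficient MP, and another of its probe sets differed by -0.10. Ly6a, which encodes Sca-1, was not analysed here.

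Smo itself was lower on the Smo-deficient array. On the probe set that represents the gene, Smo was at 9.72 in WT and 7.94 in Smo-deficient MP, a log2 difference of -1.78 or 3.43-fold. A second probe set for Smo was at 10.40 in WT and 6.36 in Smo-deficient MP, a difference of -4.05 or 16.5-fold. Both probe sets were lower, as the label says, and differed in size. Another was below the filter on dim probe sets on both arrays, at 4.68 and 4.39. In LSK cells of the same pools the first of these differences was -3.05 and the second -4.68. The labels do not say which part of Smo is removed or where the probe sets lie, so these values do not measure the share of cells with a deleted allele.

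Over all genes, few differed by 2-fold. Of 11904 genes past the filter (a mean over the 4 arrays above a log2 intensity of 7.23), 32 (0.269%) were at least 2-fold higher in Smo-deficient MP and 35 (0.294%) were at least 2-fold lower. At 1.5-fold, 305 genes (2.56%) were higher and 267 (2.24%) lower. By any size, 4799 genes (40.3%) were higher and 7103 (59.7%) lower, with a median difference of -0.05 and quartiles of -0.21 and 0.10. The whole distribution was thus slightly below 0. Higher genes made up 47.8% of the 2-fold genes. That share was 61.8% (42 higher and 26 lower) when the median difference was set to 0, 65.8% (48 and 25) after quantile normalization, 70% (56 and 24) with cyclic loess and 95.8% (203 and 9) when the arrays were centred on the hybridisation spikes. The direction in which more genes stood therefore depended on the scaling. Spike centring adds 0.33 to every difference, so a difference between -0.33 and 0 changes sign under it. It changed the sign of 14 of the 39 list medians, against 5 with cyclic loess and 1 with quantile normalization. It moved the median of all genes to 0.27, and quantile normalization moved it to 0.00. No gene was 3-fold higher, and 7 were 3-fold lower. The genes nearest the 2-fold threshold were B3gnt5 just above and S100a6 at 0.99 on the higher side, and Mboat2 at -1.01 and Myo1d at -0.99 on the lower side. Genes of like level spread around their own median by a scaled median absolute deviation of 0.148 to 0.259, which describes these 2 arrays and is no replicate error.

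**Figure D1:**
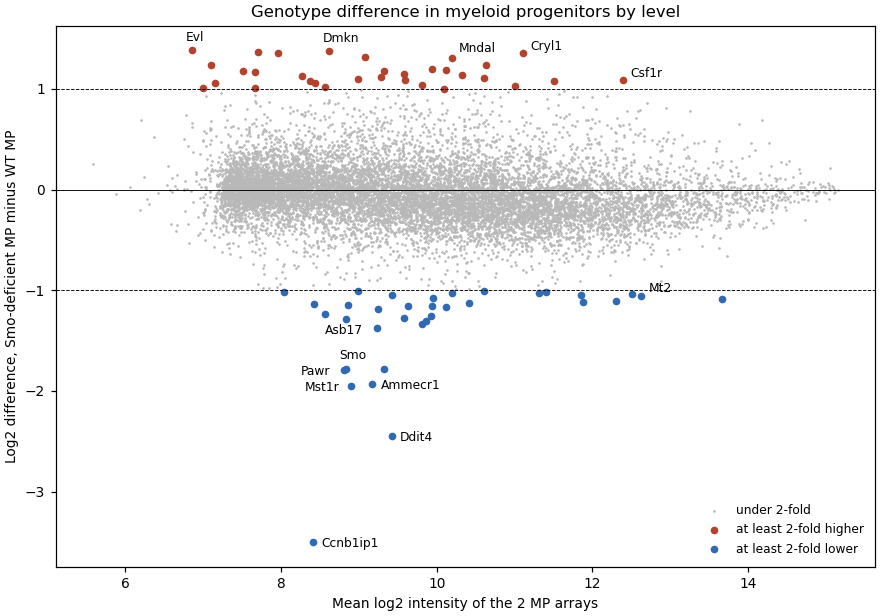
Each point is 1 of 11904 genes, with its mean log2 intensity on the 2 MP arrays on the x axis and its log2 difference (Smo-deficient MP minus WT MP) on the y axis; red and blue mark the 32 genes at least 2-fold higher and the 35 at least 2-fold lower, and dashed lines the 2-fold threshold. The lower side reaches -3.50 at Ccnb1ip1, while the higher side ends at 1.38 at Evl.

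By the representing probe set, the lowest gene was Ccnb1ip1 and not Smo, although the second Smo probe set (-4.05) was lower still. Ccnb1ip1, a ubiquitin ligase needed for meiotic crossing over, was at 10.17 in WT and 6.67 in Smo-deficient MP, a difference of -3.50 or 11.3-fold. Its level on the Smo-deficient array was under the filter level, and in LSK it was also lower, at 7.72 and 5.90. Ddit4 (Redd1), a stress-induced inhibitor of mTORC1, was at 10.65 in WT and 8.20 in Smo-deficient MP, a difference of -2.45. In LSK, Ddit4 was at 10.62 and 11.09, so that the Smo-deficient MP array was the low one of the 4. Mst1r, which encodes the receptor tyrosine kinase Ron, was at 9.87 and 7.92, a difference of -1.95. Ammecr1 was at 10.13 and 8.20, a difference of -1.93, and in LSK at 8.20 and 8.35. Here the WT MP array was the high one. Pawr, the pro-apoptotic protein Par-4, was at 9.70 and 7.91, a difference of -1.79. Tjp1, which encodes the tight junction protein ZO-1, was at 10.21 and 8.43, a difference of -1.78. Both were lower in LSK as well, by -1.86 for Pawr and -0.73 for Tjp1.

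The next genes on the lower side lay between -1.38 and -1.19. They were Asb17 (-1.38), Lmna (-1.34), Ncapg (-1.31), Podxl (-1.28), Ryk (-1.27), Prelid2 (-1.26), Sfmbt1 (-1.23) and Reep6 (-1.19). Lmna encodes the nuclear lamins A and C, Ncapg a subunit of the condensin complex that compacts chromosomes in mitosis, and Podxl a sialomucin found on progenitors and endothelium. Ncapg was at 10.52 in WT and 9.21 in Smo-deficient MP, but at 10.34 and 10.40 in LSK; its other probe set was lower in both, by -0.41 and -0.25. Among genes of the fixed lists, Myh10, non-muscle myosin heavy chain IIB, was at 12.85 and 11.74 (-1.11), Mt2, a metallothionein, at 13.15 and 12.09 (-1.06), and Sphk1, sphingosine kinase 1, at 13.03 and 11.99 (-1.04). Paqr9 (-1.15) and Nxpe2 (-1.08) were also lower in MP and not in LSK. Zc3h15 was lower in MP (-1.02) and higher in LSK (0.29), as on a second probe set (-1.16 and 0.24), but another gave -0.18 and -0.16. Of the 35 genes, 34 were above the filter level on both MP arrays. Among those named after their values were seen were Gja1 (-1.11), the gap junction protein the main connexin of stroma, Tgm2 (-1.17), transglutaminase 2, and Slc38a5 (-1.05), a glutamine transporter.

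The higher side had no gene of the size of Ccnb1ip1. Evl, an actin regulator of the Ena/VASP family, was at 6.16 in WT and 7.55 in Smo-deficient MP, a difference of 1.38 or 2.61-fold. Dmkn, a secreted epidermal protein, was at 7.93 and 9.30 (1.37), and Ms4a4b, a membrane protein of T cells, at 7.03 and 8.39 (1.37). Evl and Ms4a4b were below the filter level on the WT MP array, so their folds rest on a dim value; 8 of the 32 genes had such a value and 24 did not. Cryl1, a crystallin-like dehydrogenase, was at 10.42 and 11.78 (1.36). Tnfrsf14 (HVEM), a receptor of the TNF family, was at 7.28 and 8.64 (1.36), while in LSK it was at 7.36 and 7.27. It was the only one of the 32 that was not higher in LSK. Gria3, a glutamate receptor subunit, was at 8.42 and 9.73 (1.32). Mndal, of the interferon-inducible Ifi20x family, was at 9.54 and 10.84 (1.31), and it was the only one of 4 members of that family past the filter that was 2-fold different; these genes are alike in sequence and cross-hybridisation was not tested. Bex6 (1.24), Mir1931 (1.23), Serpinf1 (1.20), Gas2l3 (1.18), Frmd4b (1.16) and Tfec (1.14) were also among the 15 largest differences. Tfec belongs to the Mitf family of transcription factors and is expressed in cells of the macrophage lineage.

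**Figure D2:**
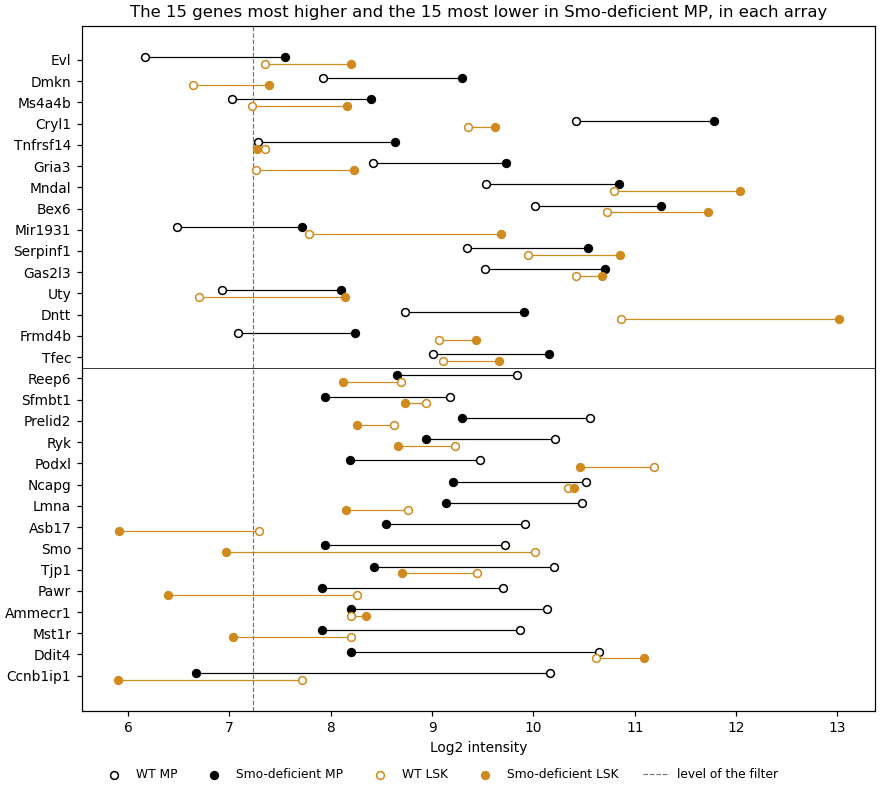
The x axis gives the log2 intensity of the 15 genes with the largest positive and the 15 with the largest negative MP difference; black marks MP and orange LSK, open circles the WT and filled circles the Smo-deficient array, and the dashed line the filter level of 7.23. In LSK, Ddit4, Ammecr1 and Ncapg were slightly higher and Tnfrsf14 slightly lower in the Smo-deficient array, opposite to MP.

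Genes with several probe sets show how far 1 value can be read. Of the 32 higher genes, 14 had another probe set past the filter; in 12 all others were higher too, and in 8 another was at least 1.5-fold higher. Of the 35 lower genes, 15 had another; in 14 all others were lower, and in 7 another was at least 1.5-fold lower. Mndal (1.31 and 1.25), Dntt (1.17 and 0.98) and Ryk (-1.27 and -1.88) were close between probe sets or larger on the other. Cryl1 was 1.36 on 1 probe set and -0.01 to 0.11 on 3 others. Lmna was -1.34 and -0.20, Podxl -1.28 and -0.47, Ncapg -1.31 and -0.41, and Sfmbt1 -1.23 with 3 others from -0.50 to -0.16. On the higher side Gria3 (0.49), Serpinf1 (0.34) and Frmd4b (0.47) were under 1.5-fold on the other probe set, and Gas2l3 was at 0.26 and 1.26. Probe sets of a gene can read different transcript ends, and which one reads the coding transcript was not tested.

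**Figure D3:**
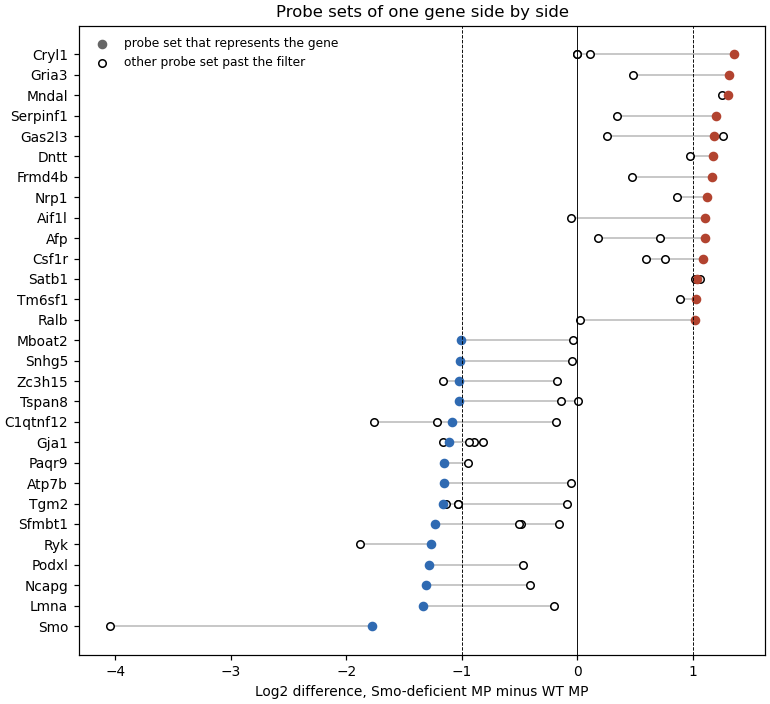
For the 29 genes that are at least 2-fold different and have several probe sets past the filter, the x axis gives the log2 MP difference of each probe set; filled points represent the gene and open points are its other probe sets. Satb1, Mndal and Gja1 have close points, while the points of Cryl1, Lmna and Smo lie far apart.

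Genes of the granulocyte programme were higher in Smo-deficient MP. Of 24 measured genes for granule and phagocyte oxidase proteins, 24 were higher, against 40.3% of all genes; their median was 0.40, against -0.05 over all genes past the filter, and they ranged from 0.14 to 0.77. At 1.5-fold, 6 of the 24 were higher, against 2.56% of all genes, and none was 2-fold. Elane, neutrophil elastase, was at 12.87 in WT and 13.64 in Smo-deficient MP (0.77). Serpinb1a, an inhibitor of granule proteases, was at 12.20 and 12.91 (0.71), Mmp8, neutrophil collagenase, at 9.38 and 10.08 (0.70), and Ctsg, cathepsin G, at 13.84 and 14.52 (0.69). Elastase and cathepsin G are proteases of the primary granules, made at the promyelocyte stage. Mpo, myeloperoxidase, of the same granules, was at 14.95 and 15.16 (0.21), near the top of the range of the array. The secondary granule genes Ltf (0.16) and Camp (0.16) and the calprotectin genes S100a8 (0.16) and S100a9 (0.19) had the smallest differences beside Chil3 (0.14). In LSK the list had a median of 0.77, against -0.02 over all genes past the filter, and 24 of 24 were higher.

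Markers of mature neutrophils, which the sort should remove, stood on the same side. All 10 measured were higher (all genes, 40.3%), with a median of 0.21 and a range of 0.16 to 0.70. Their summed level (log2 of the summed intensities) was 16.63 in WT and 16.82 in Smo-deficient MP. All 10 were above the filter level on both arrays. Of those 10, 8 are also in the granule list, and the 16 other granule genes had a median of 0.48. The part of mature neutrophils in the granule gene values was not tested. Among the other cell marker lists, the median was 0.04 for T and NK cells (4 of 6 past the filter higher), 0.25 for B cells (8 of 10 higher), -0.10 for macrophages (4 of 9 higher, and 0.23 with spike centring) and 0.00 for stroma and endothelium (3 of 6 higher). Of all genes past the filter, 40.3% were higher. The summed levels in WT and Smo-deficient MP were 12.38 and 12.72 for T and NK markers, 11.56 and 11.82 for B markers, 12.79 and 12.47 for macrophage markers, and 11.38 and 11.65 for stroma. Past the filter were 6 of 10 measured T and NK markers, 10 of 11 B cell, 9 of 12 macrophage and 6 of 13 stroma markers. The stroma median, over all measured, thus includes more markers below the filter than past it. Those below the filter included Cd3g, Cd3d and Cd2 of the T cell markers, Marco, Timd4 and Spic of the macrophage markers, and Cdh5 and Lum of the stroma markers.

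Transcription factors of granulocytes and monocytes were mostly higher. Of 18 past the filter, 14 were higher (all genes, 40.3%), 6 of them at least 1.5-fold (2.56%), with a median of 0.42 and a range of -0.39 to 1.01. Bcl6, a repressor that acts in lymphoid and myeloid cells, was at 7.16 in WT and 8.17 in Smo-deficient MP (1.01). Bcl6 was below the filter level on both WT arrays (7.17 in LSK), so its fold rests on a dim value. It passed the filter only through the Smo-deficient arrays (8.26 in LSK). Another of its probe sets, below the filter, gave 0.08. Irf8, required for monocytes and dendritic cells, was at 12.27 and 13.12 (0.86). Spi1, the gene of PU.1, was at 9.92 and 10.64 (0.72), and Gfi1, which favours neutrophils over monocytes, was at 9.49 and 10.19 (0.71). Factors of both branches were thus higher on the same array. Cebpd (0.68) and Cebpa (0.59) were also 1.5-fold higher, while Egr1 (-0.09), Jun (-0.05) and Myb (0.02) were close to 0. When a gene was taken as the mean of all its probe sets, the median of the list was 0.28.

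Monocyte and dendritic cell genes had a median of 0.54 over 27 measured genes. Of 24 past the filter, 19 were higher (all genes, 40.3%), 10 of them at least 1.5-fold (2.56%) and 3 at least 2-fold (0.269%), and none was 1.5-fold lower. The 24 ranged from -0.33 to 1.12, and 5 were lower. Nrp1, a co-receptor for semaphorins found on plasmacytoid dendritic cells, was at 8.72 and 9.84 (1.12). Csf1r, the receptor for M-CSF and the defining receptor of the monocyte lineage, was at 11.85 and 12.94 (1.09), with 0.59 and 0.76 on its other probe sets. Ly86 (MD-1), the partner of the Toll-like protein RP105, was at 10.96 and 12.05 (1.08). Mpeg1, the pore-forming perforin-2 of macrophages, was at 11.09 and 12.04 (0.95). The signalling adaptors Tyrobp (0.93) and Fcer1g (0.76), the lysosomal protease Ctss (0.68) and the clotting factor subunit F13a1 (0.81) belonged to the same group. The monocyte chemokine receptor Ccr2 was at 11.39 and 11.24 (-0.15), Fcgr1 at 7.55 and 7.49 (-0.06) and Zbtb46 at 8.07 and 7.97 (-0.10), so not all genes of these cells were higher. Of the defining macrophage markers, Adgre1 was at 8.74 and 8.99 and C1qa at 8.15 and 7.92.

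Surface markers of the MP gate and of its subsets were mostly higher, though not by like sizes. Fcgr3, which with Fcgr2b encodes the CD16/32 antigens of granulocyte-monocyte progenitors, was at 9.05 in WT and 10.14 in Smo-deficient MP (1.09). Fcgr2b was at 10.67 and 10.94 (0.26). Cd34, carried by granulocyte-monocyte and common myeloid progenitors and absent from the megakaryocyte-erythroid ones, was at 12.04 and 12.66 (0.63). The megakaryocyte marker Itga2b (CD41) was at 11.32 and 11.33 (0.01), and endoglin (Eng) at 10.76 and 10.59 (-0.17). Of the 11 markers 10 were higher (all genes, 40.3%) and 5 at least 1.5-fold (2.56%). Itga2b counts as higher at 0.01. Among those at least 1.5-fold higher were Flt3 (0.95) and Il7r (0.63), which are described again below, so the lists are not independent. No counts of sorted subsets were used here.

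Genes of lymphoid priming were higher although MP cells lack Sca-1. The median of 21 measured genes was 0.38; of 15 past the filter 11 were higher (all genes, 40.3%), 5 at least 1.5-fold (2.56%) and 2 at least 2-fold (0.269%). Dntt, the terminal transferase of lymphoid progenitors, was at 8.73 in WT and 9.90 in Smo-deficient MP (1.17). Satb1, a chromatin organiser of early lymphoid cells, was at 9.29 and 10.32 (1.03), and Flt3, the receptor of multipotent and lymphoid-primed progenitors, at 9.94 and 10.89 (0.95). In LSK the differences were 2.15 for Dntt, 1.34 for Satb1 and 1.21 for Flt3, and the median of the list was 0.70. The B lineage factors did not all follow: Ebf1 was below the filter at 5.55 and 6.17, Pax5 was at 8.15 and 7.88, and Tcf3 at 11.53 and 11.08 (-0.45).

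**Figure D4:**
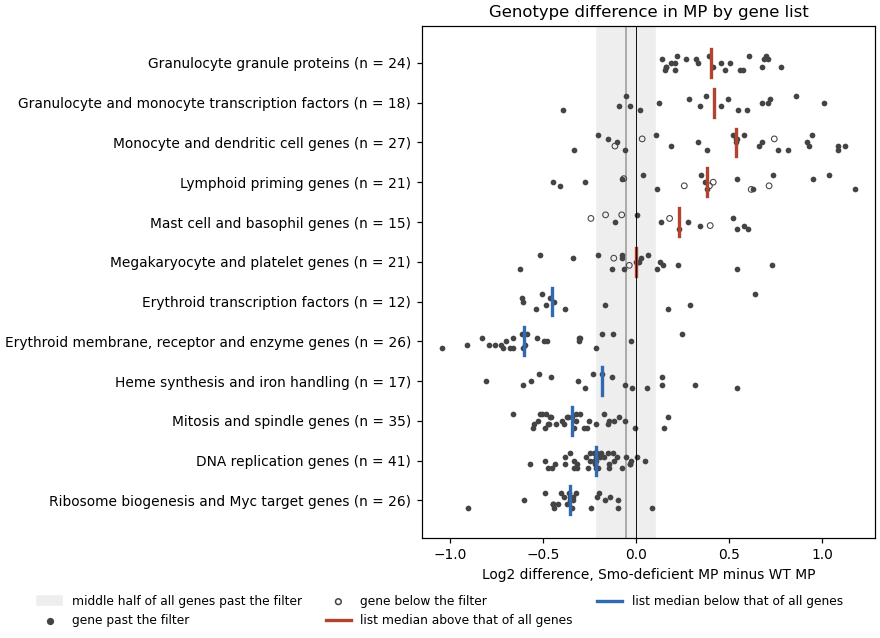
The x axis gives the log2 MP difference of each measured member of 12 gene lists; filled points passed the filter, open points did not, coloured bars are list medians, the grey line is the median of all genes past the filter (-0.05) and the grey band spans their quartiles (-0.21 to 0.10). The granulocyte, monocyte and lymphoid lists lie mostly to the right of the band, and the erythroid lists mostly to its left.

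Erythroid genes stood on the other side. Of 26 measured genes for red cell membrane proteins, receptors and enzymes, 25 were lower (all genes, 59.7%), 15 at least 1.5-fold (all genes, 2.24%) and 1 at least 2-fold; the median was -0.60. After Sphk1 (-1.04, above), which makes the sphingosine 1-phosphate that red cells carry, came the water channel Aqp1, at 13.34 in WT and 12.43 in Smo-deficient MP (-0.91). Mgll, monoacylglycerol lipase, was at 9.25 and 8.42 (-0.83), and Add2, the membrane skeleton protein adducin, at 9.43 and 8.65 (-0.79). Other probe sets of Mgll ran from -0.81 to -0.03 and of Add2 from -0.94 to -0.29. The blood group and Rh complex genes Ermap (-0.76), Rhag (-0.70), Kel (-0.68), Rhd (-0.66) and Xk (-0.66) were all 1.5-fold lower. Epor, the erythropoietin receptor, was at 11.36 and 10.64 (-0.72), and Tfrc, the transferrin receptor, at 13.41 and 12.82 (-0.59).

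The late red cell genes did not share this. Slc4a1, the anion exchanger band 3, was at 11.94 in WT and 12.19 in Smo-deficient MP (0.25) and was the single higher gene of the list. Epb42 (-0.13) and Trim10 (-0.03) were close to 0. Alas2, the erythroid enzyme that starts heme synthesis, was at 11.13 and 11.28 (0.14), and Hba-a1, a globin gene, was below the filter at 6.66 and 6.79. Hbb-b2, a globin gene outside the erythroid lists, was past the filter and at least 1.5-fold higher in Smo-deficient MP. The 5 mature erythroid markers measured had a median of 0.13, with a summed level of 13.13 and 13.27. Without the 2 such markers, the other 24 genes of the erythroid list had a median of -0.61.

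Erythroid transcription factors were lower by less. Of 12 genes 9 were lower, not far from the share of all genes (59.7%), with 2 at least 1.5-fold lower (2.24%) and 1 higher; the median was -0.45. Gata1 was at 13.04 in WT and 12.50 in Smo-deficient MP (-0.54), and Klf1, which activates globin and red cell membrane genes, at 13.88 and 13.40 (-0.48). Ldb1, the adaptor of the Gata1 and Tal1 complex, was at 10.60 in WT and lower by a difference of -0.61, and Klf3, a target and antagonist of Klf1, at 11.70 and 11.09 (-0.61, with 4 other probe sets from -0.77 to 0.09). Gfi1b (-0.51), Zfpm1 (-0.46) and Tal1 (-0.44) were in the same range. Sox6, a repressor of embryonic globins, was higher at 8.31 and 8.95 (0.64), with other probe sets from -0.20 to 0.42. The factors shared with other lineages were smaller in difference, Lmo2 at -0.17, Nfe2 at 0.17 and Lyl1 at 0.29.

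Genes of heme synthesis and iron handling had a median of -0.19 (0.14 with spike centring), and 12 of 17 were lower, near the share of all genes (59.7%), 2 of them at least 1.5-fold (2.24%). Slc40a1, the iron exporter ferroportin, was at 11.91 and 11.10 (-0.81), and Slc11a2, the iron importer DMT1, at 10.43 and 9.82 (-0.61). Alad, the second enzyme of heme synthesis, was at 13.69 and 13.12 (-0.56), while Alas1, the ubiquitous first enzyme, was at 12.13 and 12.67 (0.54). The steps of the pathway thus stood on both sides.

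Platelet and megakaryocyte genes, which share Gata1 with the erythroid ones, had a median of 0.00, with 10 of 19 higher (all genes, 40.3%). Ppbp, the platelet chemokine, was at 9.17 in WT and 9.90 in Smo-deficient MP (0.73) and in LSK was lower by -1.14. Gp5, a subunit of the platelet von Willebrand factor receptor, was at 10.79 and 10.18 (-0.62), Tubb1, platelet beta-tubulin, at 9.13 and 8.62 (-0.51), and Fli1, a megakaryocyte transcription factor, at 10.21 and 10.75 (0.54). Members thus differed in direction in MP. In LSK 18 of the 19 were lower, and the list had a median of -0.42, against -0.02 over all genes past the filter.

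Mast cell and basophil genes had a median of 0.23, with 9 of 10 higher (all genes, 40.3%) and 1 at least 1.5-fold (2.56%). Mcpt8, the basophil protease, was at 9.93 and 10.53 (0.60), Slc18a2, the monoamine transporter that loads histamine, at 6.72 and 7.30 (0.58), and Cpa3, mast cell carboxypeptidase, at 11.43 and 11.96 (0.54). Slc18a2 was below the filter level on the WT MP array, so its difference rests on a dim value. The mast cell factor Mitf was at 8.61 and 9.13 (0.52), and Gata2 at 11.30 and 11.31 (0.01). Of 4 eosinophil genes past the filter, Siglecf was at 9.21 in WT and higher by 0.80, and Epx, eosinophil peroxidase, at 10.64 and 10.41 (-0.23).

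Stem cell genes had a median of 0.01 over 23 measured, with 12 of 22 higher (all genes, 40.3%). Mllt3 (AF9), a regulator of stem cell maintenance that also acts in erythroid and megakaryocyte fate, was at 9.68 and 8.78 (-0.90), with -0.60 and -0.51 on its other probe sets. Mecom (Evi1) was at 7.58 and 7.04 (-0.54), and Procr (EPCR) at 6.76 and 7.44 (0.68), both with a value under the filter level. Erg was at 9.34 and 9.88 (0.54). In LSK, Mllt3 (0.18), Mecom (0.08) and Erg (0.16) differed by less.

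The 150 bases upstream of the start site are shown for 4 genes of these lists, because erythroid and granulocyte genes lay on opposite sides and the DNA words read by their leading factors can be counted in promoters. The words searched on both strands were AGATAA, a form of the site read by GATA factors, GAGGAA, a core of the sites read by PU.1, and CACGTG, the E-box read by Myc, and no match overlaps another in the windows shown, although AGATAA can share an end letter with GAGGAA. The sequences come from RefSeq with the mouse build GRCm38.p6, are written 5′ to 3′ in the direction of transcription, and capitals mark AGATAA and, likewise, GAGGAA, or their reverse complements. Genes shown were chosen after their values were seen. The table holds 5 promoters for Sphk1 and 2 for Fcgr3, and the first listed with a match in its window is shown, so their start is 1 of several.
Sphk1, chr11:116532294-116532443, plus strand: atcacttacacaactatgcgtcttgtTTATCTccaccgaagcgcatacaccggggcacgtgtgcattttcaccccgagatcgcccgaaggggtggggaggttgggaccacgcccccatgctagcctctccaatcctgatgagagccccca
Gp5, chr16:30310782-30310931, minus strand: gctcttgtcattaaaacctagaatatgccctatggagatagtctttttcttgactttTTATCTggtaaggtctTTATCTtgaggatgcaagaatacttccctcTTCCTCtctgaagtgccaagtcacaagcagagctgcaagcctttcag
Elane, chr10:79886162-79886311, plus strand: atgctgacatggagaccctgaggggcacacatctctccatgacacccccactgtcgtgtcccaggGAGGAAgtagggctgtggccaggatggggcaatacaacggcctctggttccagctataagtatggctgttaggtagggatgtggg
Fcgr3, chr1:171059404-171059553, minus strand: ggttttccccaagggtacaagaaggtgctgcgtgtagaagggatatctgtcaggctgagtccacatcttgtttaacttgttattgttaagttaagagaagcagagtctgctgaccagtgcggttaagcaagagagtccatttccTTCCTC
The capitals mark AGATAA at 124 bases before the start of Sphk1 and at 93 and 77 bases before that of Gp5, and GAGGAA at 47 bases before the start of Gp5, 85 before that of Elane and 6 before that of Fcgr3. The window of Sphk1 also holds CACGTG, left in lower case.

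Over windows from 250 bases before to 50 after the start, AGATAA was in 6.64% of 12259 promoters of genes past the filter. It was in 27.6% of 29 promoters of the erythroid membrane list (8 promoters), 15.8% of 19 promoters of erythroid transcription factors and 25% of 20 promoters of granule protein genes. The erythroid and the granule promoters thus both held this word in a larger share than promoters at large. GAGGAA was in 26.3% of all promoters, 60% of those of the granule list (12 of 20), 42.3% of 26 promoters of granulocyte and monocyte factors, 38.9% of 18 of monocyte genes and 24.1% of 29 of the erythroid membrane list. By size of the MP difference, GAGGAA was in 32.5% of 329 promoters of genes at least 1.5-fold higher and 20.4% of 285 promoters of those at least 1.5-fold lower. AGATAA was in 7.29% and 10.5% of the same promoters, and CACGTG in 9.42% and 12.3%, against 9.78% of all. Among genes at least 2-fold different the order for AGATAA was the other way, with 10% of 40 promoters of higher and 7.89% of 38 of lower genes. A match is a run of letters and not a bound site, and several promoters of a gene can overlap.

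Genes of dividing cells were lower by small amounts. Of 35 genes of mitosis and the spindle, 33 were lower (all genes, 59.7%), with a median of -0.34, and 1 was at least 1.5-fold lower, about the share of all genes (2.24%). Bub1b, the checkpoint kinase BubR1, was at 12.40 in WT and 11.74 in Smo-deficient MP (-0.66, and -0.43 on its other probe set). Plk1, polo-like kinase 1, was at 11.42 and 10.87 (-0.55), Cdc25c, the phosphatase that starts mitosis, at 9.28 and 8.73 (-0.55), and Espl1, separase, at 11.24 and 10.71 (-0.53). Pttg1 (0.17) and Cdc25b (0.15) were the higher genes of the list. Of 41 DNA replication genes 39 were lower (59.7%), with a median of -0.22 and none at 1.5-fold. The polymerase subunit Pola1 was at 11.49 and 10.92 (-0.57), Cdc6, which loads the helicase, at 12.50 and 12.01 (-0.49), Orc6, of the origin recognition complex, at 11.51 and 11.04 (-0.47), and Pole at 11.36 and 10.90 (-0.45), while Pcna (-0.03), Mcm4 (-0.03) and Mcm5 (0.00) were near 0. Centred on the spikes, the median of the replication list was 0.11 and that of the mitosis list -0.01, so the direction for replication genes depended on the scaling.

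Ribosome biogenesis genes showed the same pattern. Of 26 genes 25 were lower (59.7%), with a median of -0.36, 2 of them at least 1.5-fold (2.24%). Nop58, a core protein of box C/D small nucleolar particles, was at 12.29 in WT and 11.38 in Smo-deficient MP (-0.90). Nolc1, a nucleolar chaperone, was at 13.07 and 12.47 (-0.60), Polr1b, a subunit of RNA polymerase I, at 11.42 and 10.93 (-0.49), and Mybbp1a at 12.90 and 12.45 (-0.45). Myc, which drives this programme, was at 12.23 and 12.31 (0.08) and was the higher gene of the list. With spike centring the median of the list was -0.03. LSK medians were -0.30 for this list, -0.22 for mitosis and -0.18 for replication.

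Cyclins, CDK inhibitors and E2F genes had a median of -0.10 (0.23 with spike centring), with 8 of 23 higher (all genes, 40.3%). E2f5, a repressor E2F, was higher by 0.74 on 1 probe set and -0.07 on another. Cdkn1a, the inhibitor p21, was at 9.62 and 10.01 (0.39). Among p53 targets, which had a median of -0.08 (0.24 with spike centring), Trp53inp1 was at 10.05 and 10.68 (0.63) and Btg2 at 10.53 and 10.80 (0.27). Ddit4 is also in that list and was the single member that was 2-fold different.

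Cytokine receptors were mostly higher. Of 26 past the filter, 21 were higher (all genes, 40.3%), 8 at least 1.5-fold (2.56%) and 2 at least 2-fold (0.269%); the median over 30 measured was 0.22. Csf2ra, the alpha chain of the GM-CSF receptor, was at 9.14 in WT and 9.99 in Smo-deficient MP (0.84), its beta chain Csf2rb at 10.01 and 10.69 (0.68), and the G-CSF receptor Csf3r at 10.22 and 10.84 (0.62). The shared receptor subunit Il6st (gp130) was at 8.72 and 9.40 (0.68), and Il7r, the IL-7 receptor, at 7.36 and 7.99 (0.63). These stand beside Csf1r, Flt3 and Tnfrsf14 above. Mst1r (-1.95) and Epor (-0.72) were the 2 that were at least 1.5-fold lower. Csf2ra, Csf2rb, Csf3r and Il6st were named after their values were seen.

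In the hedgehog pathway itself, Smo had the largest difference. Of 20 genes past the filter, Smo was the 1 whose representing probe set was 1.5-fold or 2-fold different, and the median over 28 measured was -0.06 (0.27 with spike centring). Of the ligands, Shh was at 8.59 in WT and 8.63 in Smo-deficient MP, and Dhh and Ihh were below the filter. Of the receptors, Ptch1, which is also a target of the pathway, was at 10.64 and 10.22 (-0.42) on 1 probe set and at 0.00 on another, and the co-receptor Boc was at 7.79 and 8.13 (0.34). In LSK the Ptch1 difference was 0.09. Of the signal transducers, the inhibitor Sufu was at 9.89 and 9.82, and Kif3a, a motor of the cilium in which the pathway works, at 9.04 and 8.61 (-0.44). The other 3 probe sets of Kif3a past the filter gave -0.66, -0.65 and -0.27, of which 2 are at least 1.5-fold lower, while in LSK all 4 were higher by 0.04 to 0.21. Gli1, the target most used to read the pathway, was below the filter at 6.96 and 7.13, as were Gli2, Gli3 and Hhip. Genes known as hedgehog targets in other tissues had a median of 0.03, with 6 of 12 higher (all genes, 40.3%) and, by the representing probe sets, none 1.5-fold different. Ccne1 was at 12.57 and 12.22 (-0.35) on the probe set that represents it and at 11.35 and 10.47 (-0.88, 1.84-fold) on another, so the count depends on the probe set. Ccnd2 was at 12.44 and 12.16 (-0.28), with its other probe sets from -0.16 to -0.03, and Bcl2 at 10.78 and 11.20 (0.41). Gli1 was thus dim in both genotypes, and its level gives no reading of the pathway here.

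Stress and metabolic lists held single members with larger differences. The metallothionein list had a median of -0.31 over its measured genes and -0.215 over those past the filter. The lower quartile of all genes past the filter was -0.209. Apart from Ddit4, FoxO and glucocorticoid response genes were within 1.5-fold except Pik3ip1, an inhibitor of PI3 kinase, at 8.53 and 9.12 (0.60); Ccng2 was at 0.54 and 0.01 on 2 probe sets. Of the genes of the integrated stress response 17 of 20 were lower (all genes, 59.7%), with a median of -0.11 (0.22 with spike centring). Among them, the asparagine synthetase Asns was at 12.78 and 12.13 (-0.65). The tRNA synthetase Cars was at 9.21 and 8.51 (-0.70, and -0.12 on another probe set), and the tRNA synthetase Aars at 12.13 and 11.53 (-0.60). In glycolysis and hypoxia (median -0.07, and 0.26 with spike centring), Egln3, an oxygen-sensing hydroxylase, was at 9.75 and 10.67 (0.92), Slc2a1, the glucose transporter GLUT1, at 8.46 and 9.11 (0.66), and Pkm, pyruvate kinase, at 11.86 and 12.50 (0.64). Those 3 were the members that were 1.5-fold higher, and none was 1.5-fold lower. Among oxidant defence genes (median -0.15, and 0.18 with spike centring), Gstm1 was at 10.70 and 11.58 (0.88) and Mgst1 at 11.03 and 11.84 (0.81), both glutathione transferases. Metallothioneins and zinc transporters had a median of -0.31 (0.02 with spike centring) with 7 of 8 lower (all genes, 59.7%). Of these, Mt2 (above), the zinc importer Slc39a8 at 10.24 and 9.35 (-0.89) and Mt1 at 13.07 and 12.43 (-0.64, and -0.11 on another probe set) were 1.5-fold lower. Cholesterol synthesis genes had a median of -0.16 (0.16 with spike centring), with 16 of 20 lower (all genes, 59.7%) and none at 1.5-fold. Apoptosis regulators other than Pawr and Bcl2 lay between -0.23 and 0.35, with a list median of 0.09.

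Interferon genes were measured in 2 lists in these polyI:C-treated pools. The type I interferon response had a median of -0.06 (0.27 with spike centring) over 27 measured genes, with 10 of 23 higher (all genes, 40.3%). Ifi27l2a was at 7.76 in WT and 8.54 in Smo-deficient MP (0.78) and Gbp3 at 10.81 and 11.48 (0.67), while Oasl1 was at 9.18 and 8.73 (-0.45) and Usp18 at 8.37 and 7.96 (-0.42). The Ifi20x family had a median of 0.49 over 5 measured genes, with 3 of 4 higher (all genes, 40.3%). Beside Mndal (1.31), Ifi204 was at 7.74 and 8.27 (0.53) and Ifi202b at 9.50 and 9.99 (0.49), while Ifi203 was at 8.48 and 8.44. Of MHC class II genes 7 of 8 were higher (all genes, 40.3%), with a median of 0.20. H2-Ob was at 7.90 and 8.96 (1.06), H2-Aa at 10.57 and 11.10 (0.53) and H2-DMa at 11.10 and 11.63 (0.53). Immediate early genes, which answer to handling of cells, had a median of 0.08, with Ier3 at 11.21 and 11.86 (0.65), Zfp36 at 12.00 and 12.57 (0.57) and Socs3 at 0.55, the last with other probe sets from -0.37 to 1.18. In the homing and adhesion list (median 0.05), the integrin Itgal was at 10.13 and 10.99 (0.86) on 1 probe set and at 0.01 on another.

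Sex-linked genes differed between the arrays. The Y-linked genes Kdm5d (7.71 in WT and 8.84 in Smo-deficient MP, a difference of 1.13), Eif2s3y (9.76 and 10.90, 1.14) and Uty (6.93 and 8.10, 1.17) were each 2-fold higher. Xist, expressed from the inactive X of females, was at 12.64 and 12.17 (-0.47). In LSK the differences were 1.67, 1.70 and 1.44 for the Y genes and -0.89 for Xist. The labels give both pools as mixed male and female, without the number of each. Sex and genotype cannot be told apart in these arrays for any gene that differs between male and female mice.

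The differences of the 67 genes were set beside those in LSK, whose arrays are other ones but come from the same pools of mice. Of the 32 genes higher in MP, 31 were higher in LSK, 13 of them at least 2-fold, with a median LSK difference of 0.95 and a range of -0.09 to 2.15. Of the 35 lower genes, 28 were lower in LSK, 9 at least 2-fold, with a median of -0.57 and a range of -3.05 to 0.47. Since both populations of a genotype come from the same 4 mice, this is no replicate of the genotype. By the representing probe sets, the lower genes with a higher LSK value were Ddit4, Zc3h15, Paqr9, Ammecr1, Rnf128, Ncapg and Nxpe2.

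**Figure D5:**
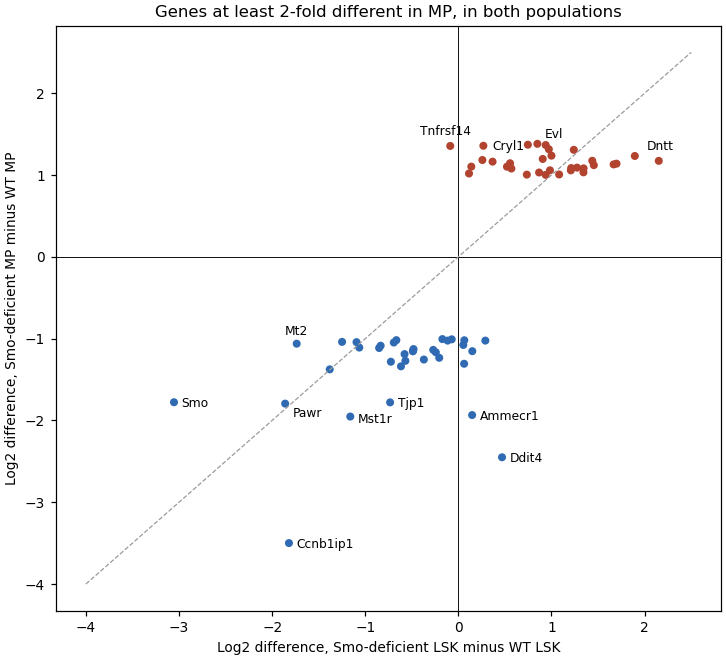
Each point is 1 of the 67 genes at least 2-fold different in MP, with its log2 genotype difference in LSK on the x axis and in MP on the y axis; red genes are higher and blue genes lower in Smo-deficient MP, and the dashed line marks equal differences. Most points lie in the same-sign quadrants, and Smo and Dntt lie farther from 0 in LSK while Ccnb1ip1, Ddit4 and Ammecr1 lie farther in MP.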

How the data were processed

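The values are the intensity of each probe set on 4 Affymetrix arrays, computed by the authors with RMA, which subtracts background, normalizes by quantiles and summarises probe sets, per the submitters' processing notes (no version given). Deposited values between 12.3 and 44290.5 are on a linear scale; log2 was taken with no pseudocount. RMA can remove a shift shared by most genes. Of 45101 probe sets, 64 controls were set aside. Of the other 45037, the platform annotation gives 1 gene for 34945, several for 932 and none for 9160; Entrez identifiers of 34741 matched the RefSeq mouse table (GRCm38.p6). For each of 18193 genes, the brightest probe set tied to that gene alone, by its mean of the 4 arrays, was used. Genes were counted when that mean passed the 50th percentile (22518 probe sets, 11904 genes); 93 of these were below it on both MP arrays. Intensity of different probe sets was not compared.

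There were 33 pathway lists and 6 marker lists with 735 symbols, 676 of them measured. List medians use all measured members, and counts those past the filter. The comparison, the lists and the naming rule were chosen with earlier results of these data known. The rule named 172 genes: the 15 largest differences each way, the 4 largest of each list, list members that were 2-fold, a fixed set that holds Smo and sorting, sex-linked and lineage genes, and the 10 genes that were 2-fold in MP with the largest gap to LSK. Other genes printed were chosen after their values were seen. Alternatives were quantile normalization and cyclic loess (limma 3.58.1, R 4.3.3), centring on the median, a filter at the 25th percentile, none, or on the MP arrays, a pseudocount of 32, the mean of all probe sets of a gene, thresholds of 1.5-fold and 3-fold, and, added after seeing the data, centring on the hybridisation spikes. The counting was tested on simulated data. Python 3.11.15 with numpy 2.4.6 and pandas 2.3.3 did the rest.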

Additional observations from a re-analysis of the deposited data

Results flagged for a closer look

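Some genes and gene lists had genotype differences of opposite sign in MP and in LSK, but many of the LSK values were close to 0. None of these gaps was tested, since each rests on 4 single arrays. For 8 of the 67 genes that were 2-fold in MP, the MP difference minus the LSK difference on the log2 scale was -2.92 for Ddit4 (-2.45 in MP and 0.47 in LSK), -2.08 for Ammecr1 (-1.93 and 0.15), -1.37 for Ncapg (-1.31 and 0.06), -1.31 for Zc3h15 (-1.02 and 0.29), -1.30 for Paqr9 (-1.15 and 0.15), -1.13 for Nxpe2 (-1.08 and 0.05), -1.08 for Rnf128 (-1.02 and 0.06) and 1.44 for Tnfrsf14 (1.36 and -0.09). On another probe set the opposite directions were absent for Ncapg (-0.41 in MP and -0.25 in LSK) and Zc3h15 (-0.18 and -0.16), while a further probe set of Zc3h15 kept them (-1.16 and 0.24) and so did the other one of Paqr9 (-0.94 and 0.12).

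List medians on opposite sides were smaller. The gap was -0.60 for macrophage markers (-0.10 in MP and 0.50 in LSK), -0.48 for erythroid transcription factors (-0.45 and 0.03), -0.37 for metallothioneins and zinc transport (-0.31 and 0.06), -0.26 for heme synthesis and iron handling (-0.19 and 0.07), 0.24 for mast cell and basophil genes (0.23 and -0.01) and -0.17 for glutathione and oxidant defence genes (-0.15 and 0.02). The metallothionein genes themselves were lower in both populations. Their LSK differences were -1.74 for Mt2 and -1.87 for Mt1 (-0.09 on another probe set). In LSK the median over all genes past the filter was -0.02. The hybridisation spikes differed by -0.33 in MP and 0.08 in LSK, and the part of that offset in these gaps was not tested.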

How the results depend on the processing

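No paired analysis was possible because each group holds 1 array, and no replicate could be left out. The counts of 2-fold genes (32 higher and 35 lower) became 305 and 267 at 1.5-fold and 0 and 7 at 3-fold. Cyclic loess gave 56 higher genes and 24 lower, with 32 and 24 of them among those reported. Quantile normalization gave 48 and 25, sharing 32 and 23. With the mean of all probe sets of a gene, 25 were higher and 24 lower, sharing 21 and 24. Centring on the hybridisation spikes, chosen after seeing the data, gave 203 and 9, and 32 and 9 were shared. Under it all 172 named genes moved by its offset and all 39 list medians moved, 14 of them changing sign, of which 8 were at least 0.1 from 0 as reported: 0.16 for cholesterol synthesis, 0.11 for DNA replication, 0.23 for cyclins, CDK inhibitors and E2F genes, 0.18 for glutathione genes, 0.14 for heme synthesis, 0.22 for the integrated stress response, 0.23 for macrophage markers and 0.019 for metallothioneins. The other main lists then had medians of -0.27 for erythroid membrane genes, -0.12 for erythroid factors, 0.74 for granulocyte and monocyte factors, 0.73 for granule proteins, 0.71 for lymphoid priming, 0.33 for megakaryocyte genes, -0.014 for mitosis, 0.87 for monocyte genes and -0.027 for ribosome biogenesis. Cyclic loess and quantile normalization moved erythroid membrane genes to -0.48 and -0.48, erythroid factors to -0.33 and -0.31, mitosis to -0.23 and -0.23 and ribosome biogenesis to -0.24 and -0.23, and loess moved granule proteins to 0.51. The mean of all probe sets moved granulocyte and monocyte factors to 0.28. List medians use all measured members, so the choice of filter could not change them. Centring on the median difference of -0.05 shifts every value by the same amount. That shift is under the limit of 0.1 on the log2 scale, so it could move no list median beyond it. The pseudocount moved 1 list median. The causes were not tested. Signal over background limits genes such as Gli1, below the filter in both genotypes.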

Other observations

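Some genes that lie next to each other on a chromosome, among the genes measured, were at least 1.5-fold different in the same direction. There were 29 such runs with 62 genes, 16 of them higher and 13 lower in Smo-deficient MP. At 1.5-fold, 2.56% of all genes were higher and 2.24% lower, and whether neighbours fell together more often than these shares give was not tested. Among the higher runs were the 3 Y-linked genes Kdm5d, Eif2s3y and Uty, described above with the sex of the pools. The run of 4 on chromosome 19, Ms4a4c, Ms4a4b, Ms4a6c and Ms4a6b, holds membrane proteins of 1 family. Other pairs were F13a1 and Ly86 on chromosome 13, Mcpt8 and Ctsg on chromosome 14, and Pdgfrb and Csf1r on chromosome 18, all higher. Similar sequences within a family can share signal, which was not tested.

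Chromosome 9 held 6 of the 35 genes at least 2-fold lower and none of the 32 at least 2-fold higher, among 658 genes. Over all genes, 0.294% were at least 2-fold lower. Chromosome 10 held 5 lower and 3 higher among 566 genes, and chromosome 3 held 3 lower and none higher among 558. Chromosome 9 was named after the values were seen, and no difference between chromosomes was tested. Of 2807 probe sets past the filter that are not tied to 1 gene, 12 were higher and 7 lower by 2-fold or more.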
